A study of Mus musculus with 12 samples.

Results

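Interferon-stimulated genes were described here as a set of 36 genes, chosen by symbol from a list of antiviral effectors, nucleic acid sensors and regulators of the interferon response, out of 23472 gene entries in the deposited expression table. All 36 had an entry, and all 36 passed the filter on low counts that left 14489 genes for testing. The libraries were bulk RNA-seq of 2 liver cell fractions, liver sinusoidal endothelial cells (SEC) and hepatic stellate cells (HSC), from male C57BL/6 mice. F-SEC and F-HSC came from mice injected with carbon tetrachloride (CCl4), a hepatotoxin that produces liver fibrosis, at 0.6 µl per g body weight as a 15% solution in olive oil, 2 times a week for 6 weeks. Q-SEC and Q-HSC came from mice given olive oil alone on the same schedule. Injections began at an age of 6 to 8 weeks and cells were taken at 12 to 14 weeks, and each of the 4 groups had 3 libraries. No group carried a transgene or a deletion according to the labels. HSC were collected from the top interface of a density gradient, whereas SEC were taken from a lower interface and then bound to magnetic beads. Nothing in the labels ties a library to a mouse of its own, and the p-values below therefore cover the variation from library to library, part of which may be technical.

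Type I interferons bind the receptor chains Ifnar1 and Ifnar2, and the kinases Jak1 and Tyk2 then activate Stat2. With Irf9 it takes part in a complex that binds the interferon-stimulated response element in the promoters of antiviral genes. IFN-gamma signals through Jak1 and Jak2, and its target genes carry gamma-activated sites. In liver, Kupffer cells, plasmacytoid dendritic cells and sinusoidal endothelial cells are all known to sense nucleic acids and to take part in interferon responses.

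The core of the response element was searched as GAAA and GAAA with any 2 bases between them, on both strands, over 250 bases before to 50 bases after each start site, in promoters that RefSeq annotates on GRCm38.p6. Of the 36 genes 25 had a promoter entry, and 15 of these 25 (60%) held a match, against 3.99% of 27025 genes in the same table and 3.44% of its 32851 promoters. The gamma-activated site was searched as TTC and GAA with any 3 bases between them, found in 7 of the 25 (28%) against 9.55% of all genes, and with any 4 bases between them, found in 5 of the 25 (20%) against 8.01% of all genes. The 100 bases just before the start site are shown for 6 genes whose match lies close to it, with every base of a response element match that lies wholly within them, on either strand, in capitals, so that overlapping matches merge into 1 run. They are printed 5′ to 3′ along the gene, with the position and strand of each beside its name. Capitals that read TTTC are matches on the opposite strand. Ifit1 holds 1 further match that runs across the 5′ edge of the stretch shown and is left in lower case.
Isg15, chr4:156200819-156200918, minus strand: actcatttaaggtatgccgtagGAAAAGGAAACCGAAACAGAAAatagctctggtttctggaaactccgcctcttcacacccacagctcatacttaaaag
Oas1a, chr5:120907526-120907625, minus strand: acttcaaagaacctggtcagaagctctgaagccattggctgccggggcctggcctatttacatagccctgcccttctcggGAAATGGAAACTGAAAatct
Oas3, chr5:120777660-120777759, minus strand: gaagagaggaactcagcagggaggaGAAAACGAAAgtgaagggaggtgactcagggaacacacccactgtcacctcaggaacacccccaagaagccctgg
Ifit1, chr19:34640789-34640888, plus strand: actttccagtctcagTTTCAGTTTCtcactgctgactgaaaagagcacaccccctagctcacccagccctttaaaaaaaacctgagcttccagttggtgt
Gbp2, chr3:142620563-142620662, plus strand: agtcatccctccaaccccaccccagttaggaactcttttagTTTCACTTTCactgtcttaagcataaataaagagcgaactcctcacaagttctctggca
Gbp3, chr3:142559944-142560043, plus strand: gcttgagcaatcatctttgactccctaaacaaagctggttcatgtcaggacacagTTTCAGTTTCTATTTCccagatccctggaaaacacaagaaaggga
Isg15 held 3 overlapping matches, between 78 and 57 bases before its start site, and Oas1a held 2 between 20 and 5 bases before it. Gbp3 also held 2, between 45 and 30 bases before the start. Of the 13 genes with a promoter entry that were lower in F-HSC than in Q-HSC (below), 8 held the motif, as did 7 of the other 12. A match describes the letters only and does not show that the site is bound.

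Gene counts summed to 8714228 to 13068564 per library, and a floor of 3 counts corresponded to 0.229 to 0.335 CPM (gene counts scaled to a common library total with edgeR's TMM factors). Every member lay above that floor in all 12 libraries, except Ifi27l2b with 3 counts in 1 Q-HSC library. The fractions were mixed. Summed over 12 sinusoidal endothelial markers, levels were 9667 to 13390 CPM in F-SEC and 26590 to 30680 CPM in Q-SEC, and 2560 to 4829 CPM in F-HSC and 8925 to 12060 CPM in Q-HSC. Summed over 12 stellate markers they were 2596 to 4869 CPM in F-SEC and 244 to 1931 CPM in Q-SEC, against 1376 to 2018 CPM in F-HSC and 577 to 2582 CPM in Q-HSC. Over 13 Kupffer cell and macrophage markers they were 2430 to 4653 CPM in F-SEC, 3336 to 4563 CPM in Q-SEC, 5889 to 13890 CPM in F-HSC and 10280 to 25940 CPM in Q-HSC. The labelled HSC fractions thus summed higher over the macrophage and endothelial lists than over the stellate list, and HSC is used below as the label of a fraction. Over 9 myofibroblast and matrix genes the sums were 4324 to 10770 CPM in F-HSC and 149 to 769 CPM in Q-HSC. For the same genes they were 9825 to 25680 CPM in F-SEC and 51.9 to 491 CPM in Q-SEC. In such bulk samples, fewer cells of a type and less RNA per cell cannot be told apart. F-HSC library 1 stood apart from the other 2 F-HSC libraries in many members and in Gpnmb, a gene of scar-associated macrophages, at 6674 CPM against 455 and 933 CPM.

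Levels were compared between genes per kilobase of transcript. Ifitm3, which blocks virus entry at endosomes, was the highest in every group, with 869 ± 372 CPM per kb in F-SEC, 704 ± 105 in Q-SEC, 486 ± 94.3 in F-HSC and 662 ± 129 in Q-HSC (SD, n = 3 each). Bst2, the tetherin that holds budding virions at the cell surface, came next, with 396 ± 196 CPM per kb in F-SEC, 422 ± 110 in Q-SEC, 263 ± 85.4 in F-HSC and 318 ± 42.2 in Q-HSC. Every library of Ifitm3 lay above every library of Bst2 in Q-SEC, F-HSC and Q-HSC, but the ranges of these genes overlapped in F-SEC. The place after these went to Ifi27l2a in F-SEC (220 ± 179 CPM per kb), F-HSC (138 ± 118) and Q-HSC (166 ± 66.8), and to Rtp4 in Q-SEC (50.5 ± 7.07). Neither Ifitm3 nor Bst2 passed any of the 5 tests below, but both passed in F-SEC against F-HSC with the library number as a block (adjusted p = 0.03 for Ifitm3 and 0.044 for Bst2).

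**Figure D1:**
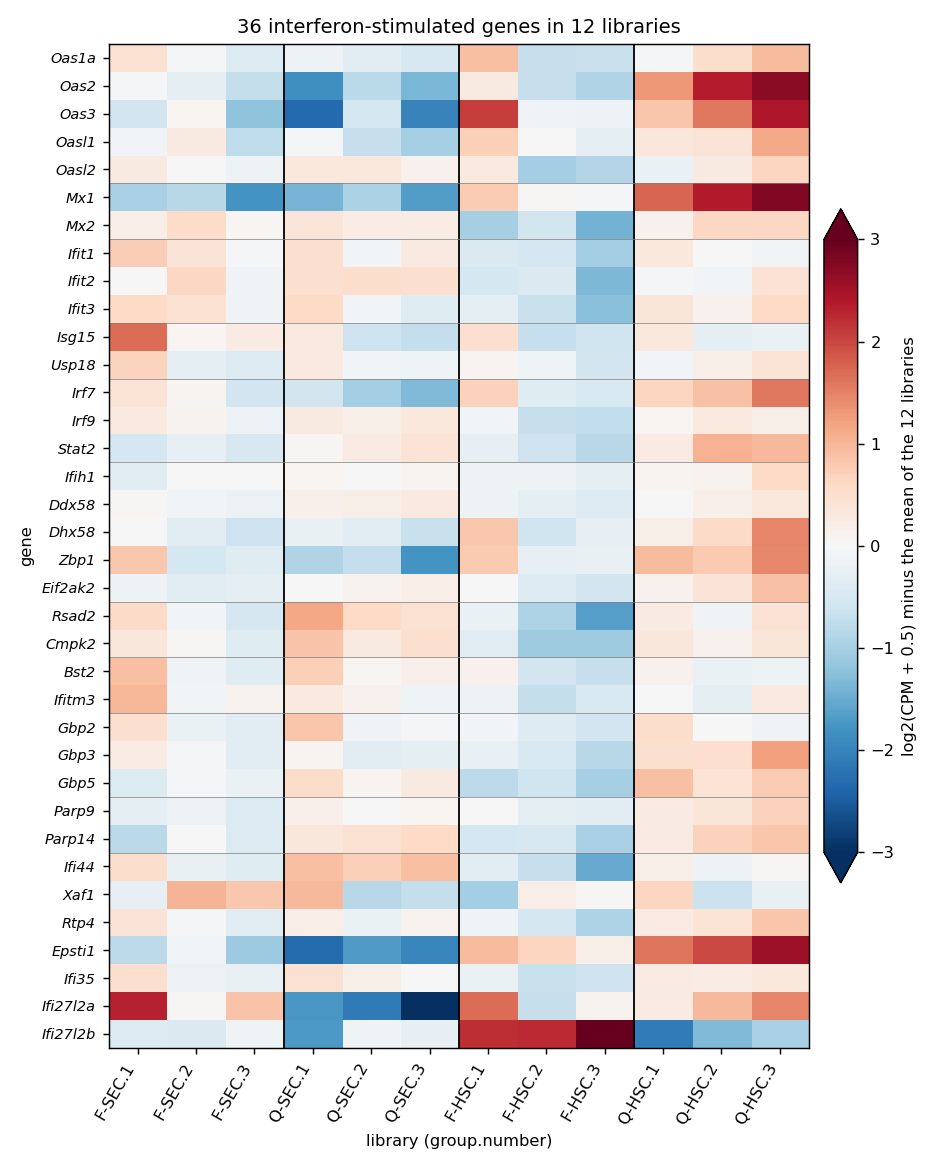
Heat map of the 36 interferon-stimulated genes (vertical, grouped by role) in the 12 libraries (horizontal, F-SEC, Q-SEC, F-HSC, Q-HSC), coloured by the log2 deviation of CPM from each gene's mean over the libraries. Most genes are above their mean in Q-HSC and below it in F-HSC libraries 2 and 3, with median deviations of -0.52 and -0.61 in those 2 F-HSC libraries and of 0.24, 0.32 and 0.64 in Q-HSC.

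In the HSC fraction many interferon-stimulated genes were lower after CCl4, the lowest being Oas2, Mx1 and Gbp5. In F-HSC against Q-HSC, 20 of 36 (55.6%) passed the test (edgeR's quasi-likelihood test, Benjamini-Hochberg adjusted p under 0.05 over all 14489 genes), 19 lower and 1 higher, where 32.3% of all tested genes passed, 14.7% higher and 17.6% lower. The median log2 fold change was -0.75 over the 36 genes and -0.02 over all tested genes, and 35 of the 36 estimates were negative. The 3 libraries of each group did not overlap in 22 of the 36, 1 higher and 21 lower in F-HSC, where 20.7% of all tested genes had every F-HSC library above every Q-HSC library and 25.3% had every one below. Leaving out F-HSC library 3 left 12 of the 36 and leaving out Q-HSC library 3 left 11, with 11 and 10 of these lower. The genes Cmpk2, Epsti1, Gbp3, Gbp5, Mx1, Mx2, Oas2, Parp14 and Stat2 stayed lower, and Ifi27l2b higher, under each of 23 alternative settings. Per-library values below are given in the order of library numbers 1, 2 and 3, and log2 fold changes with their standard errors.

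Among the transcription factors, Stat2 and Irf9, the subunits that tie the interferon receptor to the response element, were both lower. Stat2 had 99.5, 77.2 and 66.5 CPM in F-HSC, against 140.7, 246 and 236 CPM in Q-HSC. Its log2 fold change was -1.36 ± 0.23 (adjusted p = 0.0023), and no F-HSC library reached the lowest Q-HSC library. Irf9 had 79.8, 51.7 and 50 CPM in F-HSC, against 87.6, 103 and 94.7 CPM in Q-HSC, again without overlap, for a log2 fold change of -0.65 ± 0.19 (adjusted p = 0.023). Irf7, which drives the transcription of the interferon genes themselves and amplifies the response, had 228, 109.8 and 103 CPM in F-HSC, against 221, 261 and 422 CPM in Q-HSC. F-HSC library 1 exceeded the lowest Q-HSC library, and the estimate of -1.03 ± 0.38 did not pass (adjusted p = 0.057), though it did in 5 of the 23 alternative settings.

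Neither gene of the ISG15 system passed. Isg15, a ubiquitin-like protein that is attached to other proteins, had 41.5, 17.8 and 18.9 CPM in F-HSC, against 36.2, 23.6 and 25.3 CPM in Q-HSC (log2 fold change -0.12 ± 0.48, adjusted p = 0.87). Usp18, the protease that removes ISG15 and also restrains the receptor, had 25.8, 22.1 and 16.5 CPM in F-HSC, against 22.8, 27.3 and 32.5 CPM in Q-HSC (-0.36 ± 0.29, adjusted p = 0.37). Both genes overlapped between the groups.

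The lowest estimate of the set belonged to Oas2, one of the synthetases whose oligoadenylate products activate the nuclease RNase L. Oas2 (chr5:120730333-120749848, minus strand, mm10) had 69.4, 35.1 and 30.2 CPM in F-HSC, against 142.8, 296 and 375 CPM in Q-HSC. It was 6.03-fold lower in F-HSC, a log2 fold change of -2.59 ± 0.43 (adjusted p = 0.0023), and the groups did not overlap. The other 4 members of the family had estimates between -0.75 and -0.47 and none passed. Oas3, whose gene lies 3250 bases from Oas2, had 109.3, 23.7 and 22.5 CPM in F-HSC, against 46.1, 77.2 and 139.8 CPM in Q-HSC (-0.75 ± 0.69, adjusted p = 0.42). F-HSC library 1 alone was within the Q-HSC range for Oas3.

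Both Mx genes, which encode dynamin-like antiviral GTPases, were lower. Mx1 (chr16:97447035-97462906, minus strand, mm10), known to be truncated in C57BL/6 and most other inbred strains, had 15.2, 8.87 and 8.35 CPM in F-HSC, against 30.2, 47.4 and 62.6 CPM in Q-HSC (log2 fold change -2.10 ± 0.36, adjusted p = 0.0026). Mx2 had 5.79, 8.05 and 4.18 CPM in F-HSC, against 13.1, 18.8 and 18.9 CPM in Q-HSC (-1.49 ± 0.25, adjusted p = 0.0023). Neither gene overlapped between the groups.

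The 3 IFIT genes, whose products bind foreign RNA, fell together. Ifit3 had 40.8, 31.2 and 20.9 CPM in F-HSC, against 64.8, 55.0 and 76.5 CPM in Q-HSC (log2 fold change -1.08 ± 0.30, adjusted p = 0.022). Ifit2 had 78.0, 83.4 and 44.2 CPM in F-HSC, against 109.4, 106 and 153.5 CPM in Q-HSC (-0.84 ± 0.26, adjusted p = 0.031). Ifit1 had 20.7, 19.7 and 13.4 CPM in F-HSC, against 34.7, 27.8 and 26.3 CPM in Q-HSC (-0.72 ± 0.24, adjusted p = 0.04). In each of these genes every F-HSC library lay below every Q-HSC library. The call was lost in 14 of the 23 alternative settings for Ifit1 (adjusted p up to 0.16), in 7 for Ifit2 and in 6 for Ifit3. All 3 lie on chromosome 19 where a small nucleolar RNA entry, Snora19, overlaps on the opposite strand, and whether the counting used strand is not given in the sources used here.

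Of the guanylate-binding proteins, large GTPases that attack the vacuoles of intracellular pathogens, Gbp5 and Gbp3 were lower. Gbp5 had 15.3, 17.5 and 13.1 CPM in F-HSC, against 50.8, 35.99 and 46.1 CPM in Q-HSC, 2.89-fold lower in F-HSC (log2 fold change -1.53 ± 0.19) and the lowest adjusted p of the set (0.0007). Gbp3 had 48.0, 41.0 and 31.4 CPM in F-HSC, against 78.6, 80.0 and 133 CPM in Q-HSC (-1.28 ± 0.25, adjusted p = 0.0041). The third, Gbp2, was between 38.7 and 55.5 CPM in F-HSC and between 54.1 and 84.2 CPM in Q-HSC and did not pass.

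Parp14 and Parp9, members of the ADP-ribosyltransferase family, were lower as well. Parp14 had 159.5, 164 and 116 CPM in F-HSC, against 272, 373 and 412 CPM in Q-HSC (log2 fold change -1.26 ± 0.24, adjusted p = 0.0036). Parp9 had 74.5, 61.8 and 59.5 CPM in F-HSC, against 88.6, 96.1 and 121 CPM in Q-HSC (-0.64 ± 0.15, adjusted p = 0.0088). Both were without overlap, and Parp9 shares part of its position with Dtx3l on the opposite strand.

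Of the sensors, Eif2ak2, the double-stranded RNA kinase PKR, had 61.9, 46.6 and 42.1 CPM in F-HSC, against 66.8, 80.9 and 113 CPM in Q-HSC (log2 fold change -0.79 ± 0.20, adjusted p = 0.013). The RNA helicases Ifih1 (MDA5) and Ddx58 (RIG-I) were lower by a smaller amount, with -0.50 ± 0.16 (adjusted p = 0.033) and -0.44 ± 0.13 (adjusted p = 0.023). Their calls were lost in 9 (Ifih1) and 8 (Ddx58) of the 23 alternative settings. Dhx58 and Zbp1, the other sensors, did not pass, and for Dhx58 the 60.5 CPM of F-HSC library 1 lay within the Q-HSC range of 38.8 to 96.3 CPM.

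Rsad2, the enzyme viperin that makes a chain-terminating nucleotide, and Cmpk2, a nucleotide kinase 12763 bases away on chromosome 12, had nearly equal estimates on opposite sides of the threshold. Cmpk2 had 35.4, 20.9 and 20.9 CPM in F-HSC, against 55.9, 48.1 and 57.0 CPM in Q-HSC (log2 fold change -1.06 ± 0.25, adjusted p = 0.01). Rsad2 had 71.5, 42.7 and 25.8 CPM in F-HSC, against 98.3, 76.2 and 111 CPM in Q-HSC (-1.02 ± 0.37, adjusted p = 0.057). Both were without overlap between the groups.

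The remaining members included the largest increase of the set. Epsti1 (chr14:77904239-78002656, plus strand, mm10), named for epithelial-stromal interaction, had 53.6, 43.4 and 31.0 CPM in F-HSC, against 85.2, 109.4 and 165 CPM in Q-HSC (log2 fold change -1.49 ± 0.32, adjusted p = 0.0071). Rtp4 had 69.5, 52.7 and 39.9 CPM in F-HSC, against 90.6, 103 and 137 CPM in Q-HSC (-1.03 ± 0.25, adjusted p = 0.011). Ifi35 was lower too, by -0.75 ± 0.21 (adjusted p = 0.02), and Ifi44, with -0.80 ± 0.30, did not pass (adjusted p = 0.06). Ifi27l2b (chr12:103450898-103457223, minus strand, mm10) went the other way. It had 15.4, 15.6 and 27.3 CPM in F-HSC, against 0.294, 0.870 and 1.23 CPM in Q-HSC, which are 202, 171 and 248 counts against 3, 8 and 11 counts. The log2 fold change was 4.60 ± 0.58 (adjusted p = 0.00081), and the Q-HSC values were near the floor of 3 counts. Its neighbour Ifi27l2a, 7218 bases away, had 126, 24.1 and 42.0 CPM in F-HSC, against 46.4, 76.3 and 108.2 CPM in Q-HSC (-0.26 ± 0.67, adjusted p = 0.79). These 2 genes are similar in sequence, so reads may have been shared between them, yet their values did not move together here.

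Macrophage, endothelial, dendritic and lymphoid markers differed between the same groups, and their part in the lower levels was not tested. Of 13 Kupffer cell and macrophage markers 5 were lower in F-HSC than in Q-HSC and none passed as higher, with sums of 13890, 5889 and 5940 CPM in F-HSC, against 10280, 12580 and 25940 CPM in Q-HSC. Of 12 sinusoidal endothelial markers 10 were lower in F-HSC, with a median log2 fold change of -1.37. Of 10 plasmacytoid dendritic cell markers 9 were lower and 1 (Ly6d) was higher, with summed levels of 243 to 532 CPM in F-HSC and 488 to 767 CPM in Q-HSC. For these cells Ly6d made up 51.2% of the mean summed level in F-HSC and Tcf4 46.4% in Q-HSC. The median log2 fold change of the 10 markers was -2.12. Siglech, which defines those cells in mice, had 9.45, 21.2 and 27.5 CPM in F-HSC, against 79.3, 168 and 82.1 CPM in Q-HSC. Of 8 conventional dendritic cell markers 6 were lower, and of 13 T and NK cell markers 4 were lower, with sums of 27.1 to 188 CPM in F-HSC and 169 to 651 CPM in Q-HSC. None of these markers was at 3 counts or fewer in every library of F-HSC or Q-HSC. Hepatocyte markers summed to 11190 to 26780 CPM in F-HSC and 2392 to 6586 CPM in Q-HSC.

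In the SEC fraction few members passed. In F-SEC against Q-SEC, 3 of 36 (8.33%) did, Ifi27l2a and Epsti1 higher and Parp14 lower, where 23.8% of all tested genes passed, 11.8% higher and 12.1% lower. Without the rRNA precursor entry Rn45s and Lars2, which took up to 12.6% of gene counts (Rn45s alone), the split over all genes was 1915 higher and 1300 lower, against 1705 and 1750 with them, and the same 3 members passed. The median log2 fold change was 0.02 over the 36 genes and -0.05 over all tested genes, with 19 positive and 17 negative estimates. The groups did not overlap in 11 members, 4 higher and 7 lower in F-SEC, where 19.7% of all tested genes had every F-SEC library above every Q-SEC library and 24% had every one below. Libraries of the same number deviated together in this pair of groups, and with the library number as a block 6 passed, Isg15 being added as higher and Cmpk2 and Ifi44 as lower. Leaving out Q-SEC library 3 left 1 and leaving out F-HSC library 1, which shares the estimate of the spread, gave 5.

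Ifi27l2a (chr12:103442167-103443680, minus strand, mm10), a small interferon-inducible membrane protein, had 196, 39.6 and 70.3 CPM in F-SEC, against 11.2, 8.58 and 4.10 CPM in Q-SEC. It was 12.8-fold higher in F-SEC, a log2 fold change of 3.68 ± 0.77 (adjusted p = 0.0079), and passed under all 23 alternative settings. Without F-SEC library 1 the log2 fold change was 2.79. That library was the highest, but each F-SEC library exceeded each Q-SEC library. Epsti1 had 15.7, 26.0 and 12.7 CPM in F-SEC, against 5.10, 8.16 and 6.69 CPM in Q-SEC (1.44 ± 0.34, adjusted p = 0.014), without overlap. Parp14 had 131, 232 and 171.5 CPM in F-SEC, against 288, 316 and 349 CPM in Q-SEC (-0.83 ± 0.23, adjusted p = 0.027), again without overlap. Parp14 was lower after CCl4 in both fractions, and Epsti1 passed in opposite directions.

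The regulators did not pass in SEC. Irf7 had 187, 150.4 and 94.4 CPM in F-SEC, against 96.8, 69.9 and 56.2 CPM in Q-SEC (log2 fold change 0.96 ± 0.38, adjusted p = 0.088), and the lowest F-SEC library was just below the highest Q-SEC library. Stat2 had 82.5, 100.8 and 85.7 CPM in F-SEC, against 121, 141 and 158 CPM in Q-SEC, without overlap (-0.64 ± 0.22, adjusted p = 0.059). Irf9 had 103, 91.3 and 74.2 CPM in F-SEC, against 102.5, 95.9 and 105 CPM in Q-SEC (-0.17 ± 0.19, adjusted p = 0.53). The 3 factors that are known to act in 1 pathway thus had estimates of either sign, and that of Irf9 was less than its standard error from 0.

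Isg15 had 92.8, 30.0 and 34.3 CPM in F-SEC, against 35.6, 18.7 and 17.5 CPM in Q-SEC (log2 fold change 1.13 ± 0.48, adjusted p = 0.11). Within each number F-SEC exceeded Q-SEC, and the fit with the library number as a block gave 1.03 ± 0.19 (adjusted p = 0.005). Usp18 had 38.9, 19.7 and 18.2 CPM in F-SEC, against 30.0, 22.8 and 22.2 CPM in Q-SEC (0.03 ± 0.29, adjusted p = 0.94). Oas2 had 56.3, 47.0 and 34.9 CPM in F-SEC, against 15.6, 32.2 and 21.7 CPM in Q-SEC, without overlap but also without passing (0.99 ± 0.42, adjusted p = 0.11). Zbp1, a sensor of Z-form nucleic acids that can trigger cell death, had 36.6, 14.3 and 16 CPM in F-SEC, against 10.8, 12.5 and 5.61 CPM in Q-SEC (1.21 ± 0.44, adjusted p = 0.067). Like Oas2, it was separated between the groups. Mx1 was at or under 4.65 CPM in every F-SEC and Q-SEC library, and the IFIT genes had estimates between -0.29 and 0.23.

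Cell markers differed between F-SEC and Q-SEC too, and their part in these values was not tested. Of the 13 markers of Kupffer cells and macrophages, F-SEC was higher in 6 and lower in 1, and Mrc1, which sinusoidal endothelial cells also express, made up 29.9% of the mean summed level in F-SEC and 83.2% in Q-SEC. All 7 MHC class II genes were higher in F-SEC, with sums of 788 to 2395 CPM in F-SEC and 205 to 347 CPM in Q-SEC. Of 12 sinusoidal endothelial markers 9 were lower in F-SEC, and of 12 stellate markers 5 were higher. Of 10 plasmacytoid dendritic cell markers 2 were higher and 1 was lower in F-SEC, with log2 fold changes between -1.01 and 3.23. That was 30% of the list, where 23.8% of all tested genes passed. Among these markers, Klk1 was at 3 counts or fewer in every library of both groups. Siglech was at 0.958, 1.26 and 1.96 CPM in F-SEC, against 1.28, 1.57 and 0.216 CPM in Q-SEC.

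The question whether CCl4 changed a gene differently in the SEC and HSC fractions was tested as the difference between the changes, SEC minus HSC. It passed for 3 of 36 members (8.33%), Oas2 and Epsti1 positive and Ifi27l2b negative, where 0.801% of all tested genes passed, 0.566% positive and 0.235% negative. For Oas2 the difference was 3.58 ± 0.60 on the log2 scale (adjusted p = 0.032), for Epsti1 2.93 ± 0.47 (adjusted p = 0.03) and for Ifi27l2b -4.31 ± 0.78 (adjusted p = 0.037). Of the 36 differences 34 were positive, with a median of 0.75 against 0.02 over all tested genes. By sign alone, 18 members had a positive estimate in SEC and a negative one in HSC, 17 were negative in both, and Ifi27l2b was positive in both. The same split over all tested genes is not given here. Irf7 (1.99 ± 0.54, adjusted p = 0.1), Ifi27l2a (3.94 ± 1.01, adjusted p = 0.09), Mx1 (2.30 ± 0.53, adjusted p = 0.072) and Mx2 (1.5 ± 0.35, adjusted p = 0.072) did not pass, and 14 members had an unadjusted p under 0.05.

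These 3 calls depended on single libraries. None passed when F-HSC library 2 or 3, F-SEC library 2, Q-HSC library 2, or Q-SEC library 2 or 3 was left out, and 1 did without F-SEC library 1 or 3 or Q-HSC library 3. Without F-HSC library 1 there were 8, of which 7 were positive. Among the genes of other lists, 57 further interferon-stimulated genes included none that passed, although 17 had an unadjusted p under 0.05, and Gbp8 of the IFN-gamma-associated list did (2.75 ± 0.48, adjusted p = 0.036). Of the macrophage markers, 12 of 13 had positive differences and none passed, and 3 of 8 conventional dendritic cell markers and 2 of 7 MHC class II genes passed as positive.

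**Figure D2:**
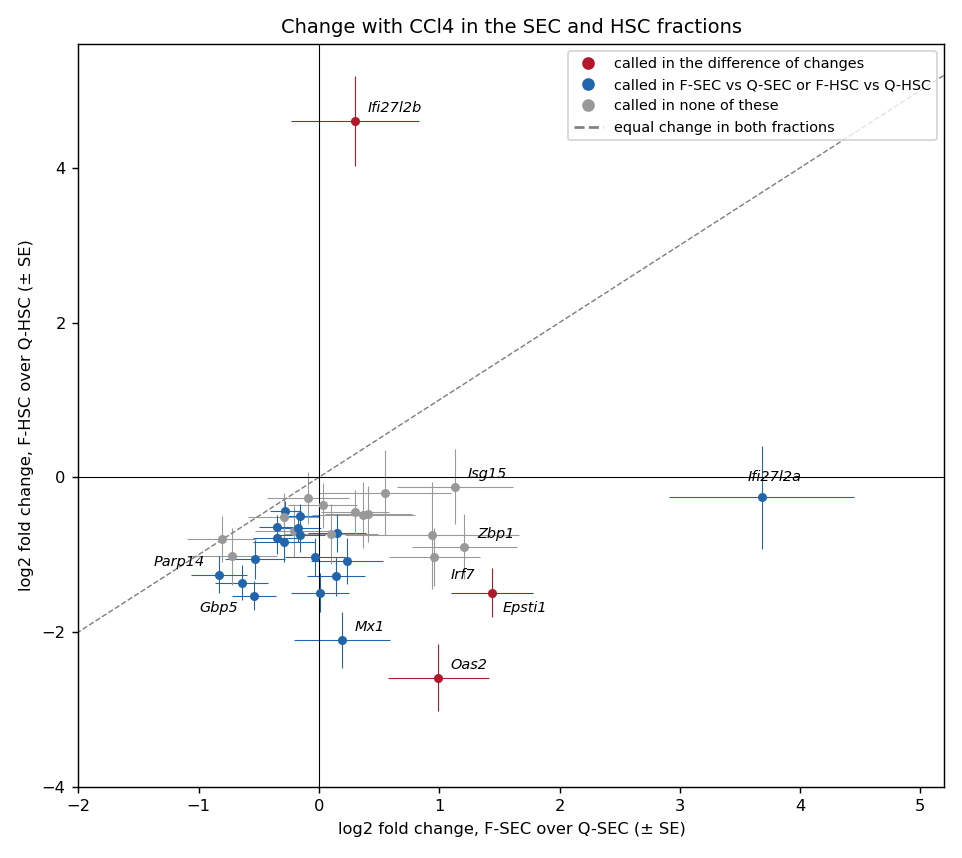
Log2 fold change after CCl4 in SEC (horizontal, F-SEC over Q-SEC) and in HSC (vertical, F-HSC over Q-HSC) for the 36 genes, with bars of 1 standard error, genes that passed in the test of the difference in red, genes that passed in either fraction in blue and a dashed line of equal change. In all, 35 points lie below 0 on the HSC axis while on the SEC axis 19 lie right and 17 left of 0, and Ifi27l2b stands alone at 4.60 on the HSC axis.

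In oil-treated mice, the SEC fraction held less of several of these RNAs than the HSC fraction. In Q-SEC against Q-HSC, 10 of 36 (27.8%) were lower and none was higher (13 had an unadjusted p under 0.05, and 1 was higher by DESeq2), where 29.8% of all tested genes passed, 15.5% higher and 14.3% lower. The median log2 fold change was -0.24 over the 36 genes and 0.01 over all tested genes. The total share of members that passed was close to that of all genes. The groups did not overlap in 17 members, 3 higher and 14 lower in Q-SEC, where 25% of all tested genes had every Q-SEC library above every Q-HSC library and 22.4% had every one below.

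Epsti1 differed most, with 5.10, 8.16 and 6.69 CPM in Q-SEC, against 85.2, 109.4 and 165 CPM in Q-HSC, 18.0-fold lower in Q-SEC (log2 fold change -4.17 ± 0.37, adjusted p = 0.00015). Mx1 had 2.98, 4.29 and 2.37 CPM in Q-SEC, against 30.2, 47.4 and 62.6 CPM in Q-HSC (-3.86 ± 0.40, adjusted p = 0.00025). Oas2 had 15.6, 32.2 and 21.7 CPM in Q-SEC, against 142.8, 296 and 375 CPM in Q-HSC (-3.55 ± 0.45, adjusted p = 0.00044). None of the 3 came near to overlapping. Oas3 (-3.21 ± 0.76, adjusted p = 0.0089), Ifi27l2a (-3.27 ± 0.76, adjusted p = 0.008) and Irf7 (-2.02 ± 0.39, adjusted p = 0.0032) were lower in Q-SEC as well. So was Zbp1, with 10.8, 12.5 and 5.61 CPM in Q-SEC, against 40.5, 35.99 and 56.9 CPM in Q-HSC (-2.20 ± 0.45, adjusted p = 0.0041). These 7 genes passed under all 23 alternative settings, with Oas3 at -4.02 when Q-SEC library 2 was left out.

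Oasl1, known in mice to restrain the translation of Irf7, had 28.4, 18.1 and 14.7 CPM in Q-SEC, against 37.8, 38.9 and 65.4 CPM in Q-HSC (log2 fold change -1.21 ± 0.37, adjusted p = 0.029). Dhx58, the helicase LGP2, had 29.6, 27.4 and 21.5 CPM in Q-SEC, against 38.8, 52.1 and 96.3 CPM in Q-HSC (-1.25 ± 0.40, adjusted p = 0.035). Gbp3 had 59.6, 44.98 and 46.1 CPM in Q-SEC, against 78.6, 80.0 and 133 CPM in Q-HSC (-0.95 ± 0.25, adjusted p = 0.013). These were smaller differences, but the groups did not overlap in any of them. Mx2, of the same family as Mx1, and the 3 IFIT genes, by contrast, had estimates between -0.27 and 0.38 and did not pass. In the same comparison 12 of 13 Kupffer cell and macrophage markers, 9 of 10 plasmacytoid dendritic cell markers and the whole MHC class II list of 7 had lower levels in Q-SEC, and all 12 sinusoidal endothelial markers were higher. Their part in the values was not tested.

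After CCl4, some members differed between the fractions, in either direction. In F-SEC against F-HSC, 10 of 36 (27.8%) passed, 7 higher (19.4%) and 3 lower (8.33%). Of all tested genes 25.3% passed, 12.6% higher and 12.8% lower. The total share of members that passed was thus close to that of all genes. The median log2 fold change was 0.41 over the 36 genes and 0.01 over all tested genes. Libraries of the same number deviated together in this pair of groups, and with the library number as a block 16 passed, 13 higher and 3 lower. Leaving out F-HSC library 3 left 5, and leaving out F-SEC library 1 or F-SEC library 2 left 6 in each case. The groups did not overlap in 9 members, 6 higher and 3 lower in F-SEC, where 21.6% of all tested genes had every F-SEC library above every F-HSC library and 19.2% had every one below.

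The IFIT genes were higher in F-SEC. Ifit1 had 46.7, 36.9 and 27.0 CPM in F-SEC, against 20.7, 19.7 and 13.4 CPM in F-HSC (log2 fold change 1.04 ± 0.24, adjusted p = 0.0099). Ifit3 had 75.7, 69.4 and 46.2 CPM in F-SEC, against 40.8, 31.2 and 20.9 CPM in F-HSC (1.04 ± 0.30, adjusted p = 0.03). Ifit2 had 113, 173 and 105.2 CPM in F-SEC, against 78.0, 83.4 and 44.2 CPM in F-HSC (0.93 ± 0.26, adjusted p = 0.025). None of these overlapped between the groups. Mx2 had 13.9, 17.7 and 12.5 CPM in F-SEC, against 5.79, 8.05 and 4.18 CPM in F-HSC (1.28 ± 0.25, adjusted p = 0.0045), whereas its neighbour Mx1 had 4.18, 4.65 and 2.17 CPM in F-SEC, against 15.2, 8.87 and 8.35 CPM in F-HSC (-1.56 ± 0.38, adjusted p = 0.013). The 2 Mx genes, 73175 bases apart on chromosome 16, thus differed in opposite directions between the same libraries.

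Cmpk2 (log2 fold change 0.80 ± 0.25, adjusted p = 0.036), Gbp5 (0.60 ± 0.19, adjusted p = 0.037) and Irf9 (0.57 ± 0.19, adjusted p = 0.048) were also higher in F-SEC. The call for Irf9 was lost in 14 of 23 alternative settings, 10 of them among the 12 that left out 1 library (adjusted p up to 0.17). That for Gbp5 was lost in 9 and that for Cmpk2 in 8. Of these genes the Irf9 libraries overlapped, with 74.2 to 103 CPM in F-SEC and 50 to 79.8 CPM in F-HSC, and those of Cmpk2 by less, with 34.1 to 56.0 CPM in F-SEC and 20.9 to 35.4 CPM in F-HSC. Ifi27l2b, with 2.09, 2.03 and 2.68 CPM in F-SEC, against 15.4, 15.6 and 27.3 CPM in F-HSC, was 8.52-fold lower in F-SEC (-3.09 ± 0.51, adjusted p = 0.0023). Epsti1 was also lower in F-SEC than in F-HSC (-1.24 ± 0.33, adjusted p = 0.019), with 15.7, 26.0 and 12.7 CPM in F-SEC, against 53.6, 43.4 and 31.0 CPM in F-HSC. In this pair 9 of 13 Kupffer cell and macrophage markers and 9 of 10 hepatocyte markers were lower in F-SEC, as were 8 of 10 plasmacytoid dendritic cell markers. All 12 sinusoidal endothelial markers were higher in F-SEC, with a median log2 fold change of 1.80. The part of these cell types in the values was not tested. The comparisons share libraries pairwise, so their lists of genes are not independent of each other.

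**Figure D3:**
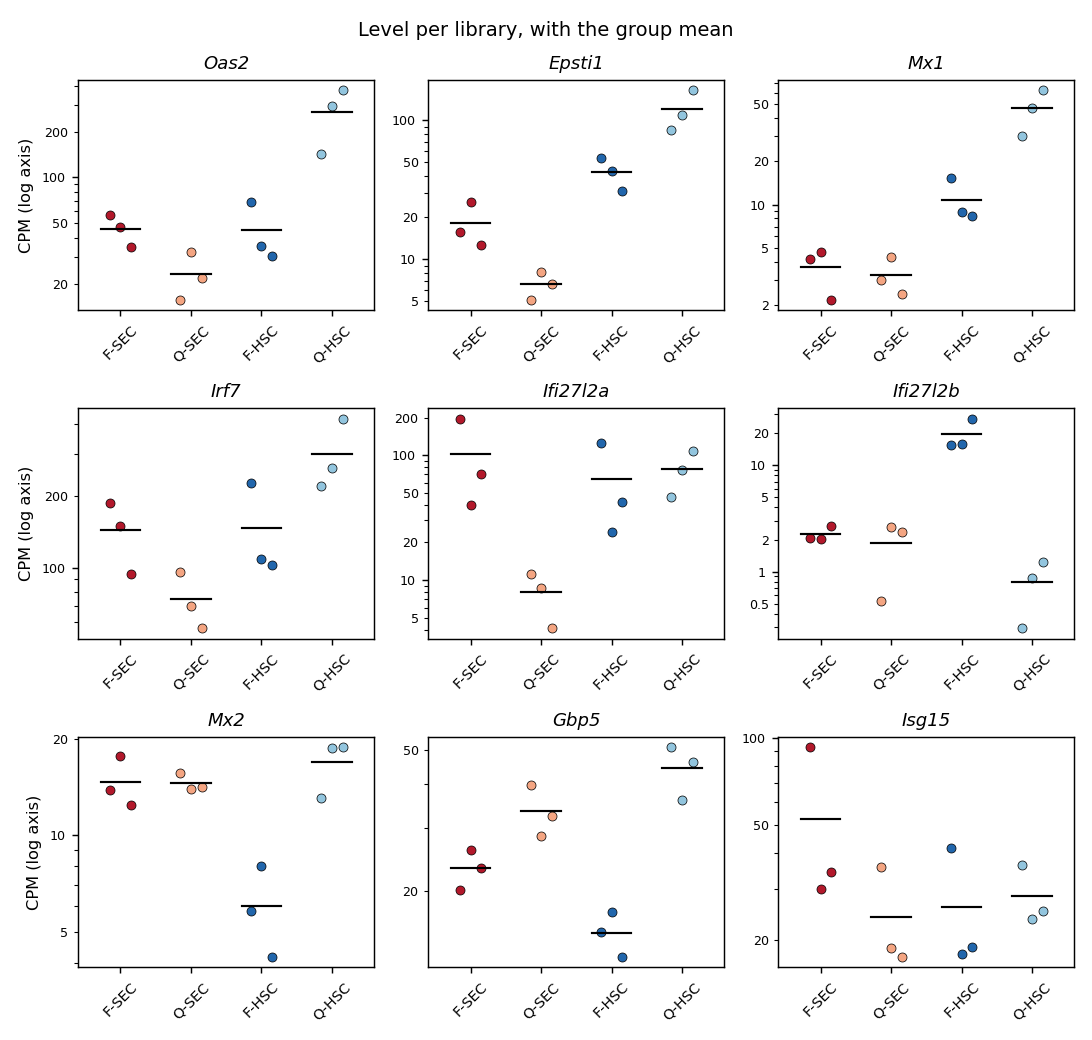
CPM (log axis) of 9 interferon-stimulated genes in each library, with F-SEC, Q-SEC, F-HSC and Q-HSC from left to right, points for libraries and lines for group means. Oas2, Mx1 and Epsti1 are highest in all 3 Q-HSC libraries, Ifi27l2a is lowest in Q-SEC at 4.10 to 11.2 CPM, and Ifi27l2b is highest in F-HSC at 15.4 to 27.3 CPM.

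Across the 5 tests, 10 of the 36 genes passed none: Bst2, Gbp2, Ifi44, Ifitm3, Isg15, Oas1a, Oasl2, Rsad2, Usp18 and Xaf1. With the library number as a block, 5 of these passed as higher in F-SEC than in F-HSC, Isg15 (adjusted p = 0.0059), Ifi44 (0.029), Ifitm3 (0.03), Rsad2 (0.033) and Bst2 (0.044), and in F-SEC against Q-SEC Isg15 passed as higher (0.005) and Ifi44 as lower (0.022). The same fit gave Rsad2 (adjusted p = 0.011), Gbp2 (0.015) and Ifi44 (0.022) as lower in F-HSC than in Q-HSC. It also gave Ifi44 as higher in Q-SEC than in Q-HSC (adjusted p = 0.02). In these last 2 comparisons the numbers did not correlate above 0.1 in every pair. Xaf1, an antagonist of the apoptosis inhibitor XIAP, varied with the library number, with 46.7, 112 and 96.4 CPM in F-SEC and 110, 30.7 and 33.2 CPM in Q-SEC, and 27.2, 63.3 and 57.0 CPM in F-HSC and 87.0, 35.3 and 47.2 CPM in Q-HSC. In each group library 1 was on the other side of libraries 2 and 3, high in the Q groups and low in the F groups. Of the 36 genes 15 passed in neither comparison of CCl4 with oil, and 2, Epsti1 and Parp14, passed in both. The matching shares over all tested genes are not given here. The counts of genes that passed none, neither or both are therefore descriptions only.

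The CPM of the 36 genes summed to 2287 to 3595 in F-SEC, 2687 to 3252 in Q-SEC, 1705 to 2790 in F-HSC and 3219 to 4624 in Q-HSC. Ifitm3 and Bst2 made up a large part of it, and without them the sums were 1636 to 2281 in F-SEC, 1999 to 2311 in Q-SEC, 1241 to 2134 in F-HSC and 2522 to 3877 in Q-HSC. F-HSC and Q-HSC did not overlap in either sum, whereas F-SEC and Q-SEC overlapped in both.

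**Figure D4:**
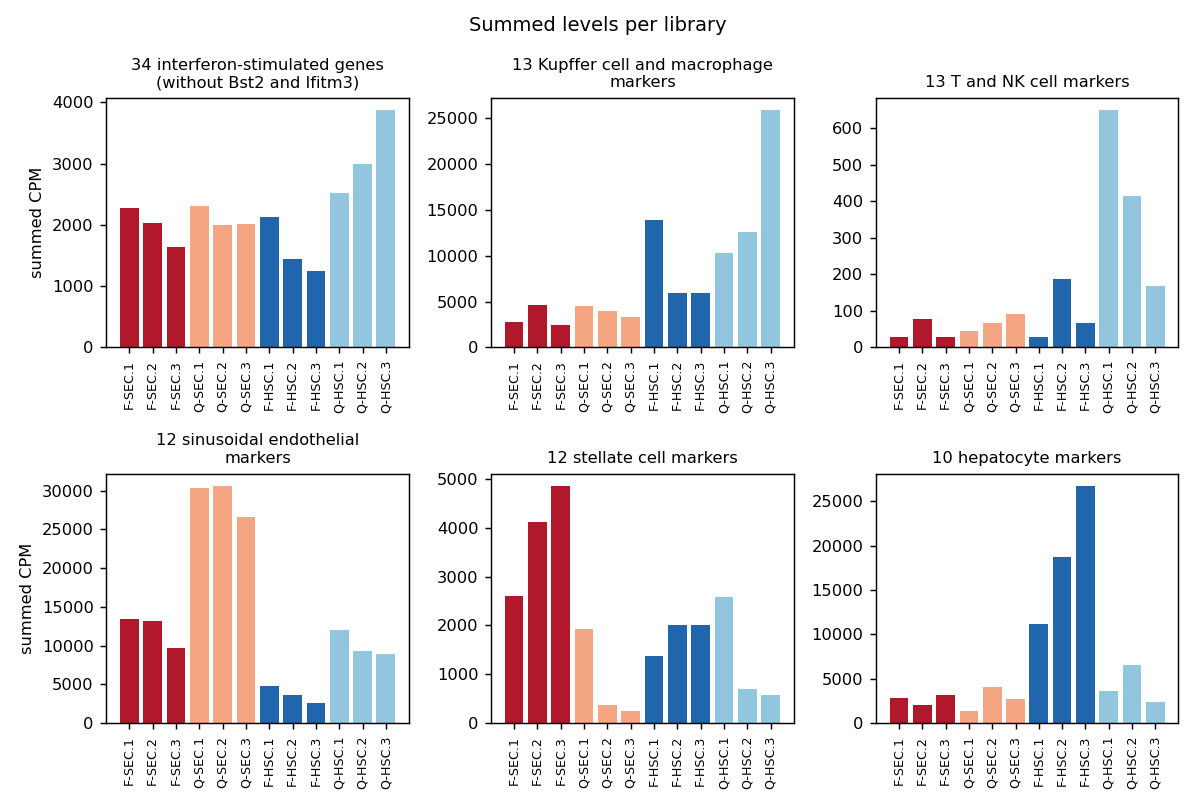
Summed CPM of 34 interferon-stimulated genes (without Bst2 and Ifitm3) and of 5 marker lists (Kupffer cell and macrophage, T and NK, sinusoidal endothelial, stellate, hepatocyte), with 1 bar per library and F-SEC, Q-SEC, F-HSC and Q-HSC from left to right. The interferon-stimulated genes sum to 1241 to 2134 CPM in F-HSC and 2522 to 3877 CPM in Q-HSC, and the hepatocyte markers to 11190 to 26780 CPM in F-HSC and 2392 to 6586 CPM in Q-HSC.

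Interferon ligand genes were barely detected. Of 21 ligand genes listed 19 had an entry, 13 of them had no count in any of the 12 libraries, and Ifnb1, Ifna9, Ifnab, Ifnk and Ifnz reached at most 2 counts in a library. A count of 0 allows up to the floor of 3 counts and does not show absence. Ifng, made by T and NK cells, was the only ligand tested. It had 7, 81 and 17 counts in F-HSC, against 161, 79 and 53 counts in Q-HSC (log2 fold change -1.63 ± 0.78, adjusted p = 0.13), and 6, 13 and 7 counts in F-SEC, against 9, 18 and 37 counts in Q-SEC (-1.44 ± 0.89, adjusted p = 0.26). Neither passed. Receptors and kinases were readily measured, and of 11 such genes 4 were lower in F-HSC than in Q-HSC and none was higher. These were 36.4% of the list, where 32.3% of all tested genes passed, 17.6% as lower. Jak1, the kinase shared by both receptor types, was lower in both fractions, by -1.08 ± 0.17 in HSC (adjusted p = 0.0019) and by -1.24 ± 0.17 in SEC (adjusted p = 0.0014). The others lower in F-HSC were Ifngr1 (-0.67 ± 0.19, adjusted p = 0.02), Tyk2 (-0.70 ± 0.20, adjusted p = 0.021) and Jak2 (-0.61 ± 0.20, adjusted p = 0.043). In SEC the remaining 10 did not pass, so that 9.09% of the list passed there, against 23.8% of all tested genes.

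Of 7 other interferon regulatory factors, Irf2 (log2 fold change -1.05 ± 0.14, adjusted p = 0.00088), Irf3 (-0.84 ± 0.14, adjusted p = 0.0024) and Irf8 (-1.04 ± 0.25, adjusted p = 0.011) were lower in F-HSC than in Q-HSC. In F-SEC against Q-SEC, Irf2 (-0.77 ± 0.14, adjusted p = 0.0038) and Irf3 (-0.52 ± 0.14, adjusted p = 0.023) were lower and Irf5, a factor of myeloid cells, was higher (2.43 ± 0.42, adjusted p = 0.0036). Irf2 competes with activating factors at response elements, and Irf3 is the factor that first switches on interferon transcription. Of 15 sensors and adaptors, 3 were lower and 1 higher in F-HSC, and 2 were lower and 3 higher in F-SEC. This list thus passed at 26.7% in F-HSC and 33.3% in F-SEC, against 32.3% and 23.8% of all tested genes. Of the 7 factors above, 42.9% passed in each comparison. Tlr3, the endosomal sensor of double-stranded RNA, was lower in both, by -0.98 ± 0.14 in HSC (adjusted p = 0.0013) and -0.83 ± 0.14 in SEC (adjusted p = 0.0031). Tlr7 (2.43 ± 0.48, adjusted p = 0.0063), Tlr8 (2.38 ± 0.66, adjusted p = 0.026) and Ikbke (1.81 ± 0.34, adjusted p = 0.0051) were higher in F-SEC, alongside the macrophage and MHC class II markers above. Of 17 feedback inhibitors, 6 were lower in F-HSC, Pias1, Pias3, Samhd1 and Ptpn2 among them, and 1 was lower (Pias1) and 1 higher (Ptpn6) in F-SEC. The inhibitors passed at 35.3% in F-HSC and 11.8% in F-SEC, against the same 32.3% and 23.8% of all tested genes.

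A longer list of further interferon-stimulated genes also had lower members in F-HSC. Of 57 tested, 27 were lower and 1 higher in F-HSC than in Q-HSC, with a median log2 fold change of -0.72, against 10 lower and 3 higher in F-SEC than in Q-SEC, with a median of -0.22. Lower genes were 47.4% of the list in F-HSC and 17.5% in F-SEC, against 17.6% and 12.1% of all tested genes. The gene that was higher in F-HSC was Plscr1, a phospholipid scramblase, chosen for mention after its value was seen, with 29.4, 35.6 and 57.9 CPM in F-HSC, against 14.5, 10.7 and 7.04 CPM in Q-HSC. The genes with the lowest adjusted p were the same 4 in both fractions. Sp100, a nuclear body protein, was lower by -1.12 ± 0.12 in HSC (adjusted p = 0.0005) and by -0.75 ± 0.12 in SEC (adjusted p = 0.0027). Ifi203, of a DNA-binding family, was lower by -2.13 ± 0.27 in HSC (adjusted p = 0.00077) and by -1.61 ± 0.26 in SEC (adjusted p = 0.0027). Gm4951 and Trim30d had estimates of -1.31 and -1.67 in HSC and of -0.95 and -1.25 in SEC. In Q-SEC against Q-HSC 18 of the 57 (31.6%) were lower and 2 (3.51%) higher, where 14.3% of all tested genes were lower and 15.5% higher. In F-SEC against F-HSC 4 (7.02%) were lower and 8 (14%) higher, where 12.8% of all tested genes were lower and 12.6% higher.

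Of 22 tested GTPases and chemokines associated with IFN-gamma, 11 were lower and none higher in F-HSC than in Q-HSC (13 had an unadjusted p under 0.05), with a median of -0.94, and 4 were lower and 1 higher in F-SEC than in Q-SEC. Lower genes were 50% of this list in F-HSC and 18.2% in F-SEC, against 17.6% and 12.1% of all tested genes. Gbp9 had 44.2, 55.2 and 40.2 CPM in F-HSC, against 131, 132 and 146 CPM in Q-HSC (log2 fold change -1.55 ± 0.15, adjusted p = 0.00029), and 67.2, 87.4 and 81.1 CPM in F-SEC, against 167, 165.5 and 168 CPM in Q-SEC (-1.08 ± 0.15, adjusted p = 0.0012). Gbp7 was lower as well, by -1.73 ± 0.19 in HSC (adjusted p = 0.00047) and -0.99 ± 0.18 in SEC (adjusted p = 0.0047). The replicates of Gbp9 lay close together in all 4 groups, so that neither comparison came near to overlap. Ciita, which turns on MHC class II genes, was the 1 gene higher in F-SEC (2.14 ± 0.55, adjusted p = 0.019). Of 20 genes of MHC class I presentation, 7 were lower in F-HSC, led by Nlrc5, their transcriptional activator (-1.56 ± 0.26, adjusted p = 0.0022), and Tap2, a subunit of the peptide transporter (-0.70 ± 0.13, adjusted p = 0.0034). The same 2 were the only ones lower in F-SEC, by -1.10 ± 0.26 (adjusted p = 0.013) and -0.47 ± 0.13 (adjusted p = 0.025). For MHC class I presentation, lower genes were 35% of the list in F-HSC and 10% in F-SEC, against the same 17.6% and 12.1%.

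Near copies of the 36 genes bear on how reads were assigned. Of 17 listed copies 13 had an entry and 8 were tested, of which 4 were lower in F-HSC than in Q-HSC (Gbp7, Oas1b, Gbp2b and Ifitm2) and none was higher, and 1 (Gbp7) was lower in F-SEC than in Q-SEC. Lower copies were 50% of those tested in F-HSC and 12.5% in F-SEC, against 17.6% and 12.1% of all tested genes. The values of Oas1a, Ifit1, Ifit3, Ifitm3, Gbp2, Gbp3, Ifi27l2a and Ifi27l2b are uncertain to the extent that reads could be divided between copies.

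The genes outside the set whose log2 CPM over the 12 libraries was most like the mean of the 36 genes were searched among 10230 tested genes that averaged 10 CPM or more. Pearson's r was 0.963 for Fam26f and 0.958 for Gm12250, which is itself an interferon-inducible GTPase, 0.952 for Jdp2, 0.937 for Fam174a, 0.929 for Calhm2, 0.926 for H2-M3, 0.924 for Gpr137, 0.920 for Tfec, 0.904 for Arrb2 and 0.901 for Pip4k2a. Fam26f averaged 12.8 CPM in F-SEC, 15.6 in Q-SEC, 10.03 in F-HSC and 23.3 in Q-HSC. The points are the same 12 libraries and share depth and cell makeup, so these values are a description. Within the set, Rtp4 (0.97), Gbp3 (0.94) and Ifit3 (0.86) followed the mean of the other members closely, while Epsti1 (0.32), Ifi27l2a (0.27), Xaf1 (-0.14) and Ifi27l2b (-0.78) did not.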

How the data were processed

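RNA of each fraction was sequenced in bulk. Per the labels and the submitters' processing notes, the authors demultiplexed with bcl2fastq and aligned with TopHat2 2.0.13 to mm10. The counting tool and strand setting are not given in the sources used here. The authors deposited read counts per entry for 12 libraries and RPKM values. RPKM was not used for tests, since the deposited counts keep the depth. Of 56826 lines, 1 held no values and 33353 were cDNA clone entries with 16.3 to 24.9% of counts, which were set aside, leaving 23472 genes. For 27 symbols that had been turned into dates, the symbol was restored.

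Counts were tested with edgeR 4.0.16 (R 4.3.3) by robust quasi-likelihood F-tests over all 12 libraries with 1 coefficient per group, TMM scaling (factors 0.899 to 1.09) and filterByExpr. The common biological coefficient of variation was 0.280 with 8 residual degrees of freedom. Benjamini-Hochberg adjustment ran over 14489 genes in each of 5 tests, and an adjusted p under 0.05 passed. CPM used TMM-scaled gene totals. Counting error is the only error that count floors cover. Titles number the libraries 2 and 3 only, and the unnumbered one of a group was treated as 1. Same-numbered libraries correlated above 0.1 in every pair for F-SEC with Q-SEC (0.31, 0.26, 0.16) and F-SEC with F-HSC (0.45, 0.45, 0.43). Results with the number as a block are therefore set beside the main ones there. The block was fitted over all 12 libraries with the same number effect in every group. For F-HSC with Q-HSC the correlations were -0.10, 0.25 and -0.30. The p-values with the block rest on that shared effect. No libraries of a group were duplicates.

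The 36 genes, the pathway lists and the marker lists (Kupffer cell and macrophage, monocyte and scar-associated macrophage, plasmacytoid and conventional dendritic cell, neutrophil, T and NK cell, B and plasma cell, MHC class II, sinusoidal endothelial, stellate cell, myofibroblast, hepatocyte, cholangiocyte, erythroid, proliferation, immediate early genes) were chosen with earlier results of these data known. Values per library are given for Irf7, Irf9, Stat2, Usp18 and Isg15, for up to 10 members with the lowest adjusted p in a test and for the 3 highest members per length in a group, and other members or values named were chosen after their values were seen. From each pathway list up to 4 genes with the lowest adjusted p were named. Alternatives were DESeq2 1.42.0, limma-voom (limma 3.58.1), other scaling, other filters, a stricter threshold, subsets of libraries and the block. The tests were tried on simulated counts. Positions are mm10, and promoters are RefSeq's on GRCm38.p6.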

Additional observations from a re-analysis of the deposited data

Results flagged for a closer look

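The change after CCl4 differed between the SEC and HSC fractions for 3 interferon-stimulated genes in the test of the difference itself, SEC minus HSC (edgeR's quasi-likelihood test, Benjamini-Hochberg adjustment over all tested genes). Oas2 differed by 3.58 ± 0.60 on the log2 scale (adjusted p = 0.032), with estimates of 0.99 ± 0.42 in SEC and -2.59 ± 0.43 in HSC. Epsti1 differed by 2.93 ± 0.47 (adjusted p = 0.03), with 1.44 ± 0.34 in SEC and -1.49 ± 0.32 in HSC. Ifi27l2b differed by -4.31 ± 0.78 (adjusted p = 0.037), with 4.60 ± 0.58 in HSC, where its Q-HSC libraries held 3, 8 and 11 counts.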

How the results depend on the processing

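No estimate that passed changed sign under any setting run. In F-HSC against Q-HSC, where 20 members passed, there were 11 at an adjusted p under 0.01, 13 with only the 6 libraries compared, 11 with clone entries fitted with genes, and 11 to 25 with 1 library left out. In F-SEC against Q-SEC (3) there were 6 by DESeq2, 1 at an adjusted p under 0.01, 5 with only the 6 libraries compared, 7 with only libraries numbered 2 and 3, and 1 to 5 with 1 left out. For the difference (3) there were 10 by DESeq2, 1 by limma-voom, 0 at an adjusted p under 0.01, 17 with only libraries numbered 2 and 3, and 0 to 8 with 1 left out. In Q-SEC against Q-HSC (10) there were 17 with only libraries numbered 2 and 3, and 7 to 13 with 1 left out. In F-SEC against F-HSC (10) there were 3 at an adjusted p under 0.01, 6 with only the 6 libraries compared, 6 with clone entries, and 5 to 12 with 1 left out. With the library number as a replicate block, 6 members passed in F-SEC against Q-SEC and 16 in F-SEC against F-HSC, where numbers paired the libraries, and 24 in F-HSC against Q-HSC, 11 in Q-SEC against Q-HSC and 3 for the difference, where the numbers did not correlate above 0.1 in every pair. The cause of these shifts was not tested, except that a stricter threshold leaves fewer calls by construction.

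Over all genes, an adjusted p under 0.01 left 1262 of 3455 in F-SEC against Q-SEC, 1985 of 4680 in F-HSC against Q-HSC, 4 of 116 for the difference, 2399 of 4317 in Q-SEC against Q-HSC and 1679 of 3671 in F-SEC against F-HSC. With clone entries fitted, the entries that passed numbered 5376 in F-SEC against Q-SEC, 10505 in F-HSC against Q-HSC and 6837 in Q-SEC against Q-HSC, where more entries were tested. For the difference, 911 genes passed by DESeq2, 25 by limma-voom, 183 with the replicate block and 1712 with only libraries numbered 2 and 3. With 1 library left out the counts were 1710 to 3671 in F-SEC against Q-SEC, 2612 to 4955 in F-HSC against Q-HSC, 3 to 743 for the difference and 2445 to 3839 in F-SEC against F-HSC.

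Among the members that passed, calls were lost in 67 of 460 pairs of gene and setting in F-HSC against Q-HSC, 9 of 69 in F-SEC against Q-SEC, 29 of 66 for the difference, 13 of 230 in Q-SEC against Q-HSC and 48 of 230 in F-SEC against F-HSC. For the difference, Epsti1 lost its call in 8 of 22 settings (adjusted p 1.7e-06 to 0.093), Oas2 in 10 (1.2e-06 to 0.11) and Ifi27l2b in 11 (1.6e-05 to 0.11). A fit with 1 library left out assumes that the groups share their spread.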

Other observations

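Other marker lists gave the following counts in F-HSC against Q-HSC and in F-SEC against Q-SEC. Of all tested genes 14.7% were higher and 17.6% lower in F-HSC, and 11.8% were higher and 12.1% lower in F-SEC. Of 9 monocyte and scar-associated macrophage markers, 5 were higher in F-HSC and 4 in F-SEC, and their sums reached 2604 to 13420 CPM in F-HSC against 565 to 1667 CPM in Q-HSC. Of 9 myofibroblast and matrix genes, 7 were higher in F-HSC and 9 in F-SEC. Of 8 proliferation genes, none passed in F-HSC by edgeR (2 had an unadjusted p under 0.05) and 6 were higher in F-SEC. Of 10 immediate early genes, 5 were higher in F-HSC and 1 in F-SEC, and all 10 were higher in Q-SEC than in Q-HSC. Of 6 cholangiocyte markers 2 were higher in F-HSC, of 8 neutrophil markers 1 was higher in F-HSC, and of 3 erythroid markers tested 3 were lower in F-HSC and 1 in F-SEC. The 4 erythroid markers with an entry were low, with sums of 4.5 to 4.95 CPM in F-HSC and 7.49 to 20.4 CPM in Q-HSC. Alas2 made up 74% of the mean sum in F-HSC. Over the 3 tested, the lowest and the median log2 fold change in F-HSC were both -2.26. None of 5 B and plasma cell markers passed in either comparison by edgeR, and none had an unadjusted p under 0.05. Of 10 hepatocyte markers 5 were higher and 1 lower in F-HSC, and 1 was lower in F-SEC.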
